A study of Mus musculus with 10 samples.

Results

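The nuclear genes of the mitochondrial respiratory chain and ATP synthase were examined in whole lung of mice with and without p53. Genes were taken by name from the array annotation, from non-control probes. They were named as Nduf subunits of complex I, as Sdha, Sdhb, Sdhc or Sdhd of complex II, or as Uqcr subunits of complex III. For complexes IV and V they were named as Cox5 to Cox8 or as Atp5 subunits. These were 77 genes, measured by 104 probes, of 27670 genes in all. The name patterns leave out Cox4i1 and Cox4i2 of complex IV, which are counted below with the subunits outside the patterns. Of them, 76 were tested and were well above background on all 10 arrays. The remaining gene, the testis isoform Cox8c, was above background on 0 arrays. Sco2, a complex IV assembly factor and p53 target that the selection also names, was not analysed here. Names follow current symbols, so that Atp5f1 appears as Atp5pb, Uqcr as Uqcr11 and Atp5s as Dmac2l. Grouping by name places Ndufa4 with complex I, although its protein is now counted with complex IV, and Dmac2l, which is not a structural subunit, with complex V.

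Wild-type C57BL/6J mice and p53-null mice of the same strain background were compared. All were males of 8 weeks that inhaled aerosolised saline for 30 min before the lung was taken, so both genotypes are at baseline. Each group had 5 arrays, called biological replicates by the series' design, and each array held Cy3-labelled RNA from whole lung. The labels do not name the p53 allele or say where in the body p53 is lost. In whole tissue, fewer cells of a type and less RNA per cell cannot be told apart.

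Respiratory complexes I to IV pass electrons from NADH and succinate to oxygen and pump protons out of the mitochondrial matrix, except complex II, which does not pump. Complex V lets the protons back in and makes ATP. Most subunits are encoded in the nucleus, and their genes are widely transcribed, with NRF1, GABPA (an ETS factor) and YY1 among the factors known to act at their promoters. A few complex IV subunits have separate isoforms for heart and skeletal muscle. p53 has been linked to respiration through targets that include Sco2, which gives the background to the comparison of genotypes.

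Promoters are shown because these genes are known for such shared sites and because the chain is described here as a group. The RefSeq promoter table (GRCm38.p6), with 1 window around each annotated start, held 65 of the 77 genes, matched by symbol, and 27025 genes in all. The NRF1 motif, which reads the same on both strands, was present in 5 of the 65 promoters (7.69%), against 1.07% of all promoters. Windows of 30 bases around it are given 5′ to 3′ on the gene's strand, with the motif that was searched in capitals.

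Ndufa11 (complex I, chr17:56717692-56717721, + strand): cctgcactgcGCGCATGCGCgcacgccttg
Uqcrc1 (complex III, chr9:108936668-108936697, + strand): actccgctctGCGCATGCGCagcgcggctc
Cox6a1 (complex IV, chr5:115349101-115349130, - strand): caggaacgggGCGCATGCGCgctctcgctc
Atp5g2 (complex V, chr15:102671070-102671099, - strand): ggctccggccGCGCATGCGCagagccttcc
Atp5k (complex V, chr5:108434430-108434459, - strand): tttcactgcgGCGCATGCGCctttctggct

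With the fifth base of the motif free, which includes the matches above, the share was 26.2% of the 65 promoters and 5.19% of all promoters. The ETS sequence CCGGAAG, searched on both strands, was in 24.6% of them and in 9.93% of all. The CCAAT sequence, also on both strands, was in 41.5% and 41.1%. The YY1 motif, searched on both strands, was in 4 of the 65 promoters (6.15%) against 0.755% of all, and those 4 were all complex I genes. In each it lay on the gene's strand, starting 24 to 35 bases after the annotated start. The windows are given in the same way, with the motif in capitals.

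Ndufa9 (chr6:126849095-126849124, - strand): ttgtgggagAAGATGGCGGCcgccgtccgc
Ndufs4 (chr13:114388045-114388074, - strand): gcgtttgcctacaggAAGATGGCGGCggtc
Ndufs6 (chr13:73328433-73328462, - strand): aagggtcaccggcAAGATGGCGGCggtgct
Ndufs7 (chr10:80249464-80249493, + strand): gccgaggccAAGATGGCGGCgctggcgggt

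These matches are descriptions of the letters in the windows. In the comparison of genotypes, the NRF1 carriers differed on the log2 scale by 0.28 for Uqcrc1, 0.07 for Atp5k, 0.06 for Atp5g2, 0.03 for Cox6a1 and -0.13 for Ndufa11, and limma called none of these genes (also 0 of them at an unadjusted p under 0.05). Among the YY1 carriers, Ndufa9 differed by 0.29, Ndufs4 by 0.06, Ndufs6 by -0.18 and Ndufs7 by -0.23, and limma called none of them with all arrays. Without wild-type array 5, where 31.3% of all genes tested were called, Ndufa9 was called higher and Ndufs6 and Ndufs7 lower. In that fit none of the NRF1 carriers was called.

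The share of spots well above background ran from 71.4% to 84.0% over the arrays, and precision is set by the number of arrays. Signals are log2 intensities relative to each array's 75th percentile. Differences are p53-null minus wild type and stand with their SE (limma, n = 5 in each group), and p-values were adjusted over the 21116 genes tested by Benjamini-Hochberg, unless stated. A Trp53 probe (chr11:69671206-69671265, mm7) read -3.15 to -2.66 on p53-null arrays, -1.67 to -1.43 on wild-type arrays 1 to 4 and -2.22 on wild-type array 5. The difference was -1.28 ± 0.16 (limma adjusted p = 0.00589, in the fit of single probes that is used for both Trp53 probes). On this probe wild-type array 5 lay between the groups. A second Trp53 probe (chr11:69662031-69662089, mm7) read -0.34 to 0.01 on wild-type arrays 1 to 4, 1.24 on wild-type array 5 and 0.13 to 0.65 on the p53-null arrays, a difference of 0.31 ± 0.28 (limma adjusted p = 0.504). Wild-type array 5 was the highest array on that probe. Counts of calls and medians for the chain are given with and without this array. Its deviation from the mean of the arrays correlated with the GC content of the probe at 0.32 over the genes tested, where the other wild-type arrays had -0.29 to 0.01 and the p53-null arrays 0.00 to 0.19. Several cell type marker lists moved with genotype: 7 of 10 neutrophil, 7 of 8 B-cell and 5 of 10 T and NK cell genes were higher, and 4 of 9 fibroblast genes lower, in p53-null lung. Their part in the values below was not tested. The lists for skeletal muscle, heart muscle, brown fat and alveolar type 1 and type 2 cells had 0 genes called by limma, and 0 with an unadjusted p under 0.05.

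With all 10 arrays, no difference in a respiratory chain gene passed the test. By limma, 0 of 76 genes were called at an adjusted p under 0.05, where 7.49% of all genes tested were called (4.59% higher and 2.89% lower). At an unadjusted p under 0.05 there were 5 higher and 1 lower of 76, against 27.6% of all genes in either direction (15.2% higher and 12.4% lower). The groups overlapped for every one of the 76 genes, where 9.32% of all genes had groups that did not overlap. The median difference was 0.03 for the chain and 0.05 for all genes tested. The single differences ran from -0.39 for Cox6b2, the testis-type isoform of a small complex IV subunit, to 0.34 for Sdhb, the iron-sulfur subunit of complex II.

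With all 10 arrays and the representative probe of each gene, the fit gave a 95% interval for each difference. The 95% interval of the difference lay within -1 to 1, a 2-fold change either way, for all 76 genes, against 77.5% of all genes tested. It lay within -0.5 to 0.5 for 59 of the 76, against 39.8% of all genes. For 61 the difference itself was under 0.2 in size, against 46.7% of all genes. The bounds farthest from 0 were -0.88 for Cox6a2 and 0.89 for Cox8b, which are both muscle isoforms of complex IV. The fit did not include slide, which is largely confounded with genotype, and the intervals were not adjusted for the number of genes. These bounds also do not cover other probes or the fit without wild-type array 5. Without that array Cox6a2 differed by -0.35 ± 0.30 and Cox8b by -0.12 ± 0.42. A further, dim probe of Atp5pb differed by -0.67 ± 0.45 with all arrays. The spread over the 10 arrays was also smaller here: the median SD was 0.17 for the chain and 0.28 for all genes tested. All genes tested include those well above background on only 5 arrays, and no comparison with genes of like signal was made. The smaller spread and narrower intervals are thus not shown to be particular to the chain.

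**Figure D1:**
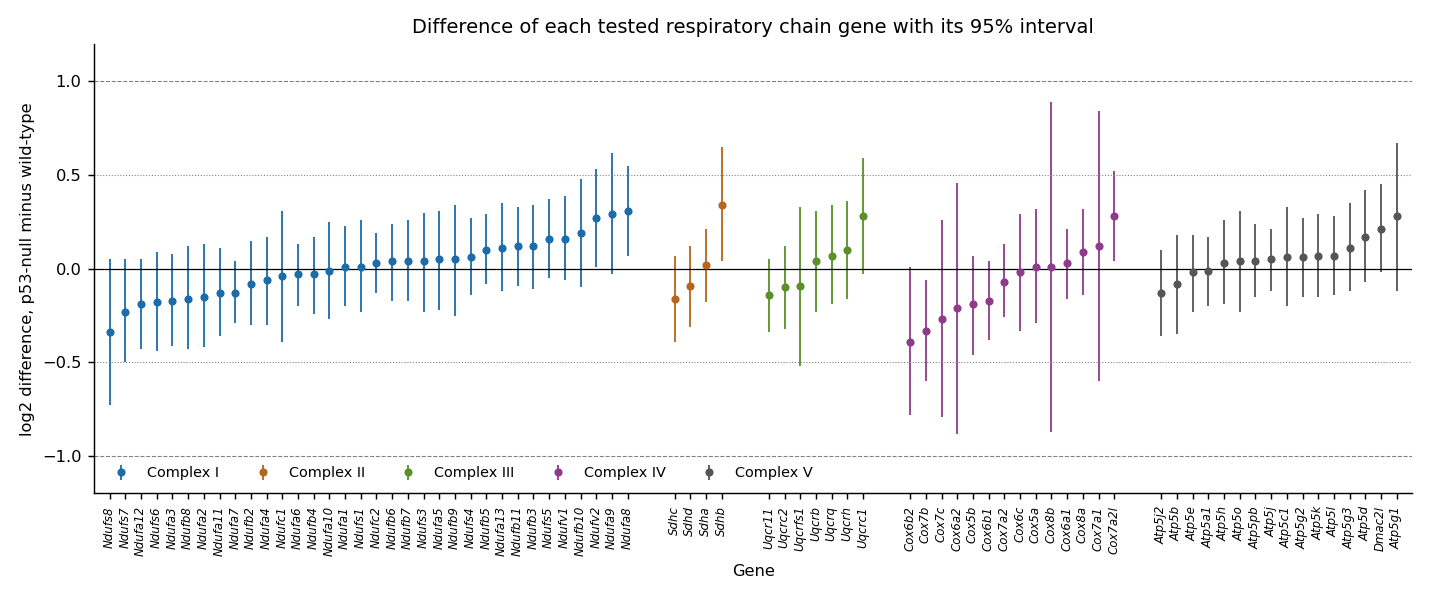
Log2 difference (p53-null minus wild-type) of 75 of the 76 tested genes, ordered within its complex, with the 95% interval from limma as a vertical line. Dotted lines mark 0.5 and dashed lines 1 in either direction; every interval shown lies within -1 to 1, and the widest belong to Cox6a2, Cox7a1 and Cox8b.

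With all arrays the complexes had medians near 0. The median difference was 0.03 over the 35 genes of complex I, -0.04 over the 4 of complex II, 0.04 over the 7 of complex III, -0.04 over the 14 of complex IV and 0.05 over the 16 of complex V. Slides were numbered in a lower and a higher range, and 3 wild-type and 4 p53-null arrays lay in the lower range. Within it, the medians of complexes I to V were -0.01, -0.03, 0.00, -0.03 and 0.03. In the higher range, with 2 wild-type arrays and 1 p53-null array, they were -0.06, 0.02, -0.07, -0.24 and -0.02, so that complex IV lay lower there than over all arrays. Only 1 slide held both groups, and every other slide held arrays of a single genotype, so slide and genotype are largely confounded. On the slide that held both groups, with 1 array of each, the medians were 0.06, 0.03, 0.15, -0.09 and 0.12. Blocking on slide number range gave 0.00, -0.03, -0.02, -0.11 and 0.03.

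Arrays differed more than genotypes did, and the complexes moved together between arrays. The mean signal of all 76 genes, each centred on its own mean over the arrays, was highest on wild-type array 2 at 0.25 and lowest on wild-type array 4 at -0.20. On the p53-null arrays it ran from -0.16 on array 2 to 0.11 on array 3. The lowest array of each group, wild-type 4 and p53-null 2, came from the same slide. Wild-type array 2 was the highest array for all 5 complexes, from 0.16 for complex II to 0.43 for complex IV. The group means of this score were 0.00 in both genotypes, with an SD within groups of 0.14.

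**Figure D2:**
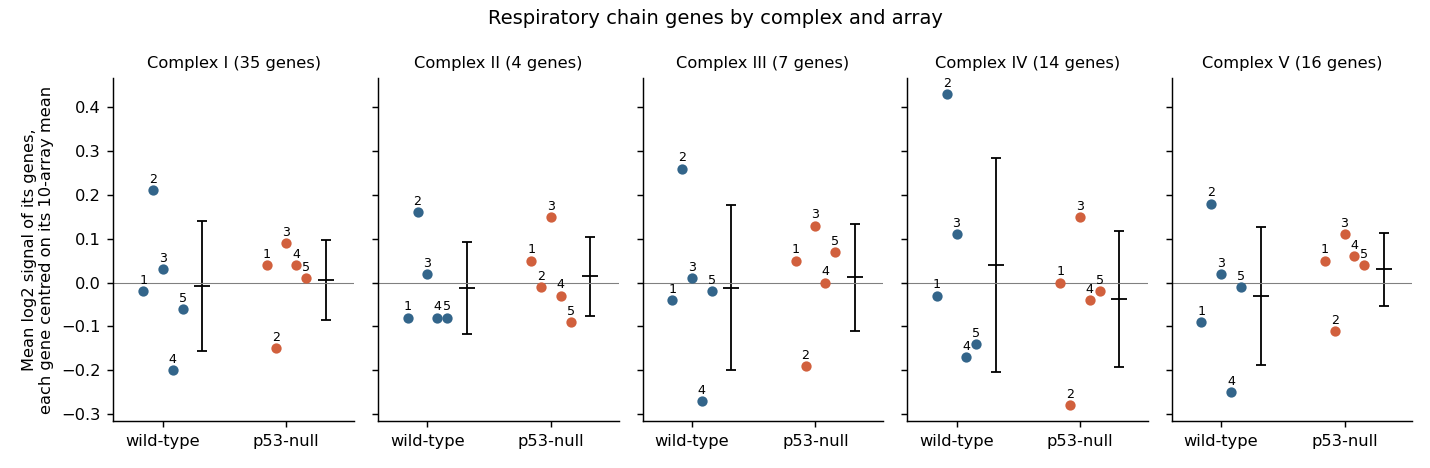
Mean log2 signal of the tested genes of each complex on each array, with each gene centred on its mean over the 10 arrays; points are arrays, labelled with their replicate number, and bars show the mean and SD of each group. Wild-type array 2 is highest in every panel, and the groups overlap in every panel.

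Complex I, the NADH dehydrogenase, has a matrix arm that holds the flavin and iron-sulfur clusters and a membrane arm that pumps protons. Of its 35 genes, 3 had an unadjusted p under 0.05, all in the higher direction, Ndufa8 and Ndufv2 among them. Ndufa8, an accessory subunit on the intermembrane side, read 2.59, 2.76, 2.49, 2.35 and 2.67 on wild-type arrays 1 to 5 and 2.92, 2.68, 3.07, 3.01 and 2.74 on the p53-null arrays. All p53-null arrays but array 2 lay near or above the top of the wild-type range, and the groups overlapped between 2.68 and 2.76. The difference was 0.31 ± 0.11 (limma adjusted p = 0.103).

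Ndufv2, an iron-sulfur subunit of the NADH-oxidising tip, differed by 0.27 ± 0.12 (limma adjusted p = 0.172). It read 1.76, 1.52, 1.73, 1.62 and 2.03 in wild-type lung and 2.08, 1.79, 2.24, 2.01 and 1.88 in p53-null lung, and of the wild-type arrays only array 5 lay within the p53-null range. In the other direction the difference reached -0.34 for Ndufs8.

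Complex II, succinate dehydrogenase, belongs to the tricarboxylic acid cycle as well as to the chain, and its 4 subunits differed in direction. Sdha, the flavoprotein, read between 1.90 and 2.20 in wild-type and between 1.90 and 2.21 in p53-null lung, a difference of 0.02 ± 0.09 (limma adjusted p = 0.925). Sdhb read 2.53, 2.89, 2.61, 2.36 and 2.93 in wild-type lung and 3.05, 2.78, 3.31, 2.98 and 2.93 in p53-null lung. Wild-type arrays 2 and 5 were within the p53-null range, and the difference was 0.34 ± 0.14 (limma adjusted p = 0.138).

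The membrane anchors of complex II, which bind ubiquinone, leaned the other way. Sdhc read 2.09, 2.26, 2.11, 2.10 and 1.74 in wild-type lung and 1.83, 1.95, 2.06, 1.88 and 1.78 in p53-null lung, a difference of -0.16 ± 0.10 (limma adjusted p = 0.354). Wild-type array 5 was the lowest of all 10 arrays for this gene. Sdhd differed by -0.09 ± 0.09 (limma adjusted p = 0.556), and wild-type array 5 was again the lowest array, at 2.81.

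Complex III, the cytochrome bc1 complex, passes electrons from ubiquinol to cytochrome c. None of its 7 genes, each by its representative probe, reached an unadjusted p under 0.05. The smallest p belonged to Uqcrc1, a core subunit, at 0.28 ± 0.14 (limma adjusted p = 0.221), with wild-type arrays at 3.85, 4.22, 3.96, 3.67 and 4.33 and p53-null arrays at 4.39, 4.01, 4.39, 4.37 and 4.27. A second Uqcrc1 probe gave 0.51 (unadjusted p = 0.00722 and adjusted p = 0.0675 in the limma fit of single probes). Uqcr11, a small accessory subunit, differed by -0.14 ± 0.09 (limma adjusted p = 0.324). Cyc1, the cytochrome c1 subunit that the name patterns leave out, differed by -0.30 ± 0.11 (limma adjusted p = 0.117), and was named after its values were seen.

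Complex IV, cytochrome c oxidase, had differences from -0.39 to 0.28 over 14 genes. Cox7b, a small accessory subunit, read 2.85, 3.10, 2.90, 2.88 and 2.40 in wild-type lung and 2.52, 2.40, 2.54, 2.50 and 2.53 in p53-null lung. Wild-type arrays 1 to 4 lay above every p53-null array, while wild-type array 5 equalled the lowest of them. The difference was -0.33 ± 0.12 (limma adjusted p = 0.113).

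Cox7a2l, counted by its name with complex IV, read 2.59, 2.61, 2.38, 2.40 and 2.88 in wild-type lung and 2.97, 2.79, 2.91, 2.90 and 2.69 in p53-null lung. Wild-type array 5 again lay among the p53-null arrays, and the difference was 0.28 ± 0.11 (limma adjusted p = 0.134). The difference for Cox6b2 was -0.39 ± 0.18 (limma adjusted p = 0.190); a spot flag left wild-type array 3 out of this fit. Its general counterpart Cox6b1, for which the same array was left out, differed by -0.17 ± 0.09 (limma adjusted p = 0.281).

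The 16 genes of complex V, the ATP synthase, ran from -0.13 to 0.28, and by limma 0 were called and 0 reached an unadjusted p under 0.05. The smallest p belonged to Dmac2l at 0.21 ± 0.11 (limma adjusted p = 0.218) and to Atp5d, the delta subunit of the central stalk, at 0.17 ± 0.11 (limma adjusted p = 0.341). The catalytic and structural head subunits Atp5b and Atp5a1 differed by -0.08 ± 0.12 and -0.01 ± 0.08. Among the genes of the proton-carrying c-ring, Atp5g1, Atp5g2 and Atp5g3, differences were 0.28 ± 0.18, 0.06 ± 0.09 and 0.11 ± 0.11.

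Probes of the same gene mostly gave like values. Of the 20 genes with over 1 tested probe, 0 had probes of both signs with an unadjusted p under 0.05 in limma. Few of these probes reached that p at all, so this count does not measure how well probes match. The widest gaps were at Atp5pb, with probes from -0.67 to 0.22, at Dmac2l, from -0.39 to 0.21, and at Atp5h, from -0.40 to 0.03, so the values of these genes depend on the probe. In the other genes the gap was 0.23 or less, and some of them also had probes of both signs.

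Leaving out wild-type array 5 gave calls in both directions. Without it, limma called 10 of 76 genes (13.2%), 5 higher and 5 lower, against 31.3% of all genes tested (17.1% higher and 14.3% lower). The share called in the chain was thus below that of the table in this fit as well. Ndufa9, Ndufv2, Sdhb and Cox7a2l were among the higher genes, and the lower ones were Ndufs6, Ndufs7, Ndufs8, Sdhc and Cox7b. By complex, 3 higher and 3 lower belonged to complex I, 1 and 1 to complex II, 1 and 1 to complex IV, and 0 to complexes III and V, where 1 complex III gene and 0 complex V genes had an unadjusted p under 0.05 (15 of the 76 genes and 42.4% of all genes did). The median difference was 0.01 for the chain and 0.08 for all genes. By complex, from I to V, it was -0.01, -0.07, 0.05, -0.13 and 0.05.

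**Figure D3:**
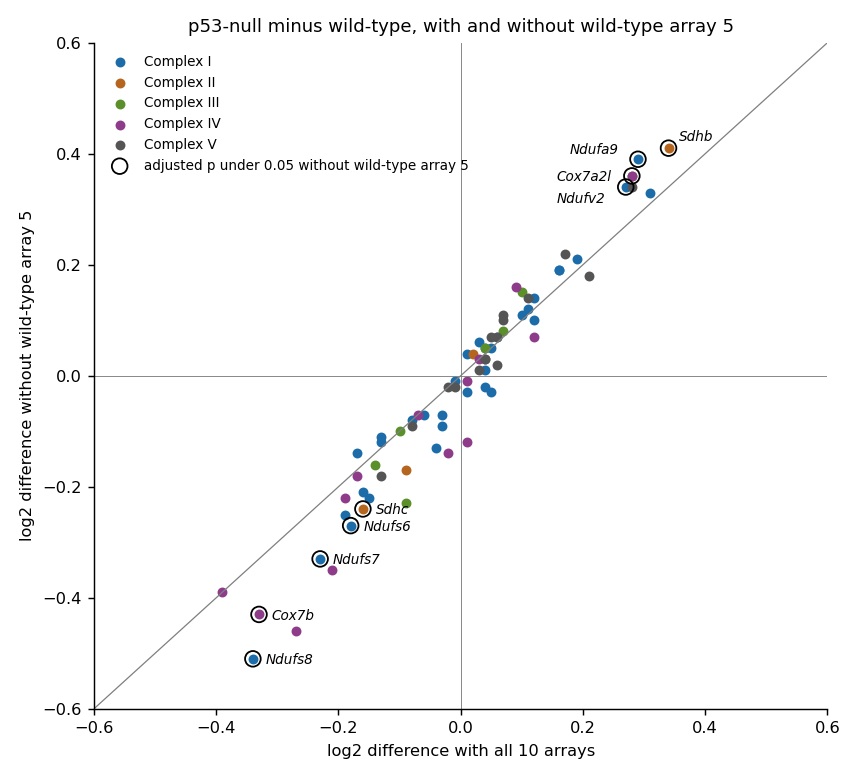
Log2 difference of 75 of the 76 tested genes with all 10 arrays (horizontal) and without wild-type array 5 (vertical), coloured by complex; circled genes have a limma adjusted p under 0.05 without that array, and the grey diagonal marks equal values. All 9 circled genes lie farther from 0 without the array, which follows in part from choosing them by that fit.

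Among the complex I genes, Ndufs8, an iron-sulfur subunit near the ubiquinone site, read 1.29, 1.50, 1.37 and 1.18 on wild-type arrays 1 to 4 and 0.74, 0.65, 1.05, 0.80 and 0.89 in p53-null lung, with no overlap. Wild-type array 5 read 0.52, lower than every other array. The difference was -0.51 ± 0.10 (limma adjusted p = 0.00589) without the array and -0.34 ± 0.18 (limma adjusted p = 0.236) with it. Ndufs7, which carries the last cluster before ubiquinone, read 4.11, 4.39, 4.18 and 4.06 against 3.85, 3.71, 3.86, 3.92 and 3.94, with wild-type array 5 at 3.67. Its difference was -0.33 ± 0.09 (limma adjusted p = 0.0198).

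Ndufs6, a zinc-binding accessory subunit, had a difference of -0.27 ± 0.08 (limma adjusted p = 0.0376). Wild-type array 5, at 3.11, was again below every other array. In the higher direction, Ndufa9, an accessory subunit at the junction of the arms, differed by 0.39 ± 0.12 (limma adjusted p = 0.037) and Ndufv2 by 0.34 ± 0.10 (limma adjusted p = 0.0329). For both, wild-type array 5 lay within the p53-null range, at 3.69 and 2.03.

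Outside complex I, Cox7b had the smallest p, with -0.43 ± 0.07 (limma adjusted p = 0.0027) and no overlap between wild-type arrays 1 to 4 and the p53-null arrays. Cox7a2l differed by 0.36 ± 0.09 (limma adjusted p = 0.0137), also with no overlap. Sdhb differed by 0.41 ± 0.13 (limma adjusted p = 0.0431) and Sdhc by -0.24 ± 0.07 (limma adjusted p = 0.0401). In all, 7 of the 76 genes had groups that did not overlap without the array, 2 higher and 5 lower, against 29.5% of all genes tested. For the 10 called genes, wild-type array 5 lay within the p53-null range in 6 and within the range of the other wild-type arrays in 1. These genes were chosen by the fit without that array, so its place in them is partly set by the choice. Over all 76 genes it lay within the p53-null range in 51 and within the range of the other wild-type arrays in 46. The p53-null range is spanned by 5 arrays and the other by 4, and more arrays span a wider range. The counts for the 2 ranges therefore cannot be compared directly and do not show which group wild-type array 5 resembles.

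**Figure D4:**
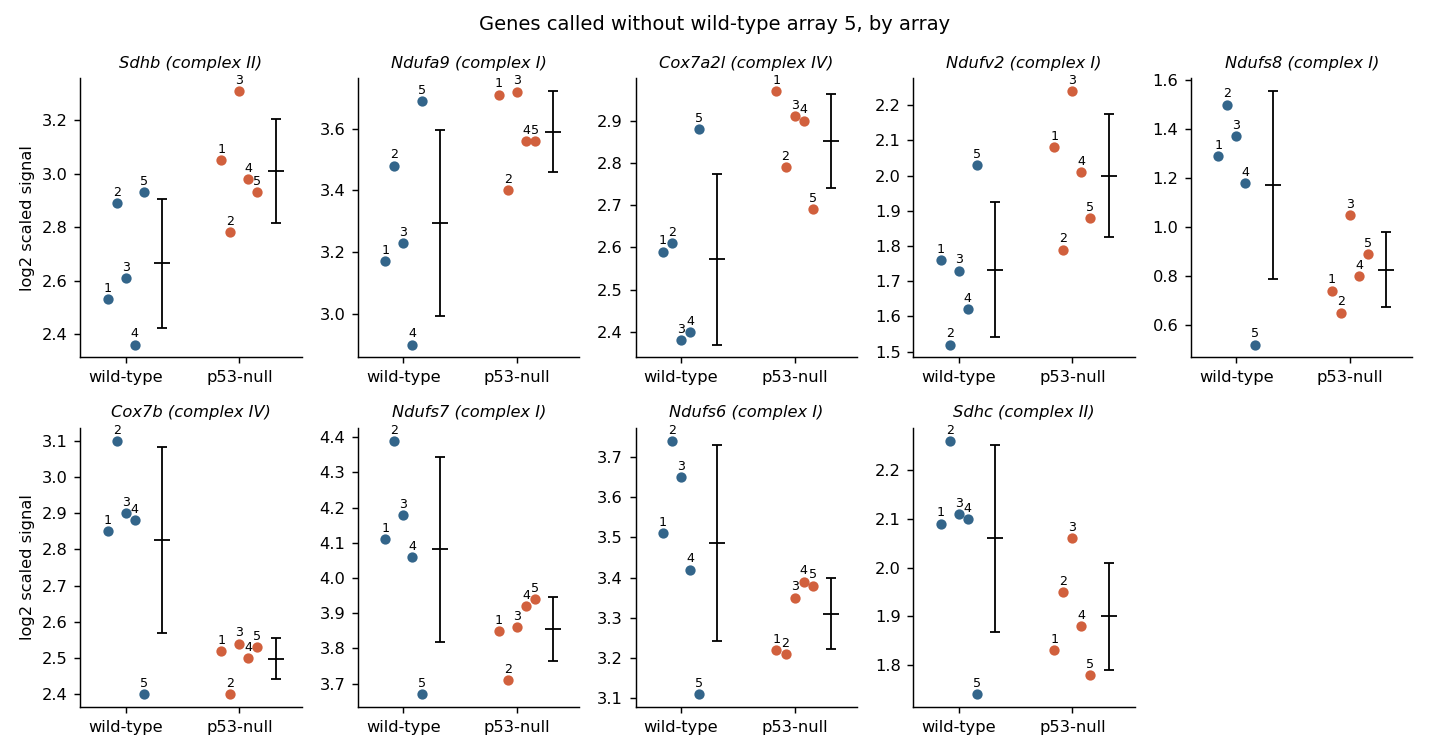
Log2 scaled signal on each array for 9 of the 10 genes called by limma without wild-type array 5, with points labelled by replicate number and bars showing the mean and SD of all 5 arrays of a group. Wild-type array 5 lies at the p53-null level or beyond it in most panels, which follows in part from choosing the genes by the fit without it. The vertical axes differ between genes and do not start at 0.

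The calls without wild-type array 5 also moved with probe GC content, so they were recomputed with each array's trend on probe GC removed, an alternative chosen after the data were seen. That fit gave 2 higher and 15 lower genes of 76, against 10% higher and 17.6% lower of all genes tested (27.6% in either direction). Of the 10 genes above, Ndufv2 and Cox7a2l remained called higher and all 5 lower genes remained called lower, while Ndufa9 and Sdhb, at 0.27 and 0.29, were among those not called (limma adjusted p = 0.162 and 0.161). The chain's median was -0.11 in that fit and that of all genes -0.02. The median probe GC content was 45% for the chain and 43.3% for all genes, and it was 45% for the 5 higher and 51.7% for the 5 lower genes. With all arrays and the trend removed, 0 of 76 genes were called by limma, against 6.25% of all genes, and 6 had an unadjusted p under 0.05, all lower, against 15.7%. With limma's array weights, which count outlying arrays less, 7 genes were called higher and 3 lower, against 16.8% and 14.1% of all genes (30.9% in either direction).

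The largest variation in the chain was in the muscle isoforms of complex IV and did not follow genotype. Cox6a2, Cox7a1 and Cox8b replace the general isoforms Cox6a1, Cox7a2 and Cox8a in heart and skeletal muscle. They had the 3 highest SDs over the 10 arrays of the 76 genes, 0.50, 0.53 and 0.65. The probes of each pair differ in sequence: over their 60 bases the longest run in common was 4 bases for Cox6a1 and Cox6a2, 6 for Cox7a2 and Cox7a1, and 5 for Cox8a and Cox8b. No probe was compared with the transcript of its partner, so these runs do not show that each probe reads only its own isoform. Stretches of 30 bases from the array's probes are shown 5′ to 3′ with that run in capitals; positions of the whole probes are on mm7, and the Cox7a1 probe is printed without a position.

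Cox6a1 (chr5:114566550-114566609): ggaccacgaaaaCCCTttggatgctaagct
Cox6a2 (chr7:124302204-124302263): cggctctgagagcCCCTgaggttccagtgg
Cox7a2 (chr9:79831804-79831863): attgatgtgtattaACTGCTgccaataaag
Cox7a1: tgactctggggggcactgcctACTGCTtat
Cox8a (chr19:7035098-7035157): tCATGTtattcaattccagtcacctcttct
Cox8b (chr7:137316216-137316275): cacatccctgagagatttcattaaaCATGT

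Cox8b read 1.27, 2.77, 1.68, 0.83 and 0.99 in wild-type lung and 1.95, 0.62, 2.11, 1.53 and 1.37 in p53-null lung. Wild-type array 2 stood highest and p53-null array 2 lowest, and the groups overlapped over most of their range. The difference was 0.01 ± 0.39 (limma adjusted p = 0.991). Cox7a1 read 2.25, 3.73, 2.87, 1.98 and 2.48 in wild-type lung and 2.95, 2.19, 3.29, 2.77 and 2.69 in p53-null lung, a difference of 0.12 ± 0.32 (limma adjusted p = 0.852). Cox6a2 read 3.43, 4.69, 4.07, 3.35 and 3.17 in wild-type lung and 3.58, 2.99, 4.04, 3.58 and 3.49 in p53-null lung, a difference of -0.21 ± 0.30 (limma adjusted p = 0.701).

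The general isoforms varied less. Cox6a1 lay between 6.42 and 6.75 over the 10 arrays, Cox7a2 between 3.47 and 3.90, and Cox8a between 4.84 and 5.33. Their differences between genotypes were 0.03 ± 0.08, -0.07 ± 0.09 and 0.09 ± 0.10 (limma adjusted p = 0.867, 0.679 and 0.628).

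The muscle isoforms moved with heart muscle markers over the arrays. The heart list (Myh6, Myl7, Myl4, Tnnt2, Tnni3, Actc1, Nppa, Sln, Ryr2 and Mybpc3) had 10 of 10 genes well above background on all arrays. Its mean centred signal ran from -0.90 on wild-type array 4 to 1.04 on wild-type array 2, and from -0.38 on p53-null array 2 to 0.91 on p53-null array 3. Nppa, the atrial natriuretic peptide gene, read 6.47 and 6.17 on wild-type array 2 and p53-null array 3, and 2.50 to 4.22 on the others. The groups overlapped, and 0 of 10 heart genes were called by limma or had an unadjusted p under 0.05.

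Correlations with the heart score were computed over the 10 arrays for these 6 isoform genes, a choice made after the scores were seen. Cox7a1 followed the score with Pearson r = 0.96 (permutation p = 2e-05, adjusted over 6 relations 0.00012) and Spearman rho = 0.97 (permutation p = 4e-05, adjusted 0.00024). Cox8b gave r = 0.90 (permutation p = 0.0005, adjusted 0.0015) and rho = 0.91 (permutation p = 0.0004, adjusted 0.0012). Cox6a2 gave r = 0.78 (permutation p = 0.011, adjusted 0.0165) and rho = 0.81 (permutation p = 0.0062, adjusted 0.0093). Leaving out the arrays farthest from the median score, wild-type 2 and p53-null 3, gave r = 0.93 for Cox7a1, 0.76 for Cox8b and 0.41 for Cox6a2, so that the last relation rests on those arrays. Over the 7 arrays of the lower slide number range r was 0.97, 0.91 and 0.87; the higher range holds too few arrays.

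For the general isoforms the same measure gave r = 0.77 for Cox7a2 (permutation p = 0.00868, adjusted 0.0165; rho = 0.83, permutation p = 0.00442, adjusted 0.00884), 0.64 for Cox6a1 (permutation p = 0.048, adjusted 0.0576; rho = 0.72, permutation p = 0.0241, adjusted 0.0289) and 0.47 for Cox8a (permutation p = 0.176, adjusted 0.176; rho = 0.59, permutation p = 0.0739, adjusted 0.0739). Without the same 2 arrays r was 0.73, 0.62 and 0.77, and in the lower slide number range 0.68, 0.43 and 0.11. The size of the movement differed: from the lowest to the highest array Cox6a1, Cox7a2 and Cox8a spanned 0.33, 0.43 and 0.49 on the log2 scale, and Cox6a2, Cox7a1 and Cox8b spanned 1.70, 1.75 and 2.15.

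**Figure D5:**
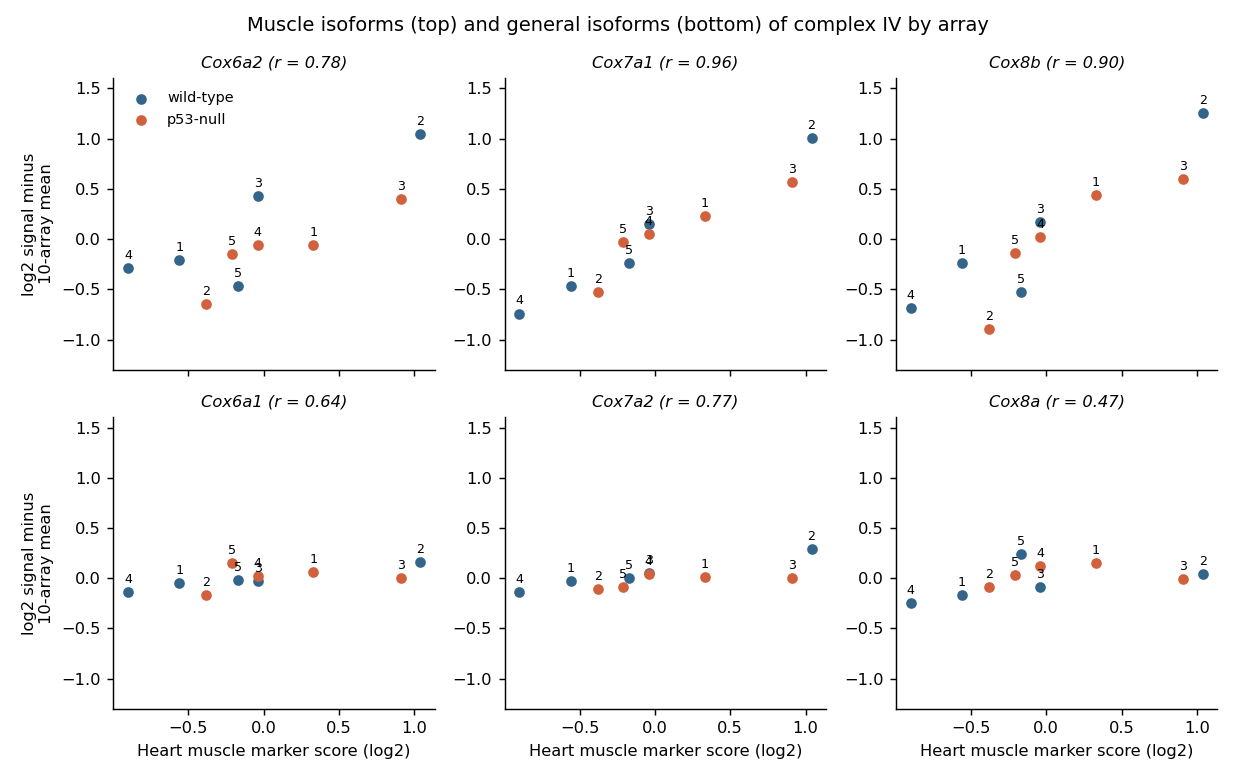
Log2 signal of the muscle isoforms (top row) and general isoforms (bottom row) of complex IV on each array, minus the gene's mean over the 10 arrays, against the heart muscle marker score; points are arrays labelled by replicate number, and r is Pearson's over 10 arrays. All panels share one vertical scale, on which the muscle isoforms climb from wild-type array 4 and p53-null array 2 to wild-type array 2 and the general isoforms stay near 0.

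Skeletal muscle markers were high on a different set of arrays from the heart markers. The skeletal muscle score fell into separate sets, 3.98 on wild-type array 2, 2.97 and 2.89 on p53-null arrays 4 and 5, and -1.94 to -1.11 on the other 7, so no correlation is given. The mean of the muscle isoforms was 1.10 on wild-type array 2 but 0.00 and -0.11 on p53-null arrays 4 and 5. Brown fat markers were highest on the same 3 arrays as the heart markers. Their score was 1.49, 1.42 and 0.87 on p53-null arrays 1 and 3 and wild-type array 2, where the isoform mean was 0.20, 0.52 and 1.10. No correlation with the brown fat score was computed, so the relation to heart markers was not told apart from one to brown fat markers. With the 3 arrays of high skeletal muscle score left out, 0 of 76 chain genes were called by limma, against 0.0474% of all genes, and 3 had an unadjusted p under 0.05, against 16.5%.

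Genes around the chain gave few calls with all arrays, where 7.49% of all genes tested were called and 27.6% had an unadjusted p under 0.05. Without wild-type array 5, where 31.3% were called, the counts of higher and lower genes were 0 and 2 of 13 carriers and other subunits, 3 and 3 of 17 tricarboxylic acid cycle and pyruvate dehydrogenase genes, 5 and 11 of 38 assembly factors, 12 and 12 of 78 mitochondrial ribosomal protein genes and 7 and 6 of 20 regulators. The following counts are with all arrays. Of 13 carriers and subunits outside the name patterns and of 17 genes of the tricarboxylic acid cycle and pyruvate dehydrogenase, 0 were called by limma. In these lists 2 and 5 genes had an unadjusted p under 0.05. At that limit 5 assembly factors were higher and 7 lower, of 38, and 4 regulators higher and 5 lower, of 20. Both shares were above that of all genes. Of 78 mitochondrial ribosomal protein genes 8 were higher and 5 lower at it. Of 38 assembly factors 1 was higher, Cox16, a complex IV assembly factor. It read 1.64, 1.50, 1.44, 1.42 and 1.18 in wild-type and 1.94, 1.70, 1.72, 1.82 and 1.83 in p53-null lung, with no overlap (0.37 ± 0.09, limma adjusted p = 0.0472). Of 78 mitochondrial ribosomal protein genes 1 was higher, Mrps26 (0.46 ± 0.12, limma adjusted p = 0.0472), and 1 lower, Mrpl32 (-0.45 ± 0.10, limma adjusted p = 0.0356). The 13 subunits encoded by mitochondrial DNA were not analysed here.

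Of 20 regulators of mitochondrial transcription and biogenesis 1 was higher, Polg2, the accessory subunit of the mitochondrial DNA polymerase. It read -0.56, -0.69, -0.64, -0.66 and -0.47 in wild-type and -0.34, -0.37, -0.26, -0.37 and -0.17 in p53-null lung, with no overlap (0.30 ± 0.07, limma adjusted p = 0.0419). With 1 array left out at a time, Polg2, Mrps26 and Mrpl32 were called in 1 of 10 fits, the one without wild-type array 5, and Cox16 in 2, without wild-type array 5 or 1. Tfam, which packages mitochondrial DNA and starts its transcription, and Aifm1, which helps maintain complex I, were named after their values were seen. Tfam read 3.05, 2.80, 2.98, 3.47 and 5.41 in wild-type and 4.52, 4.80, 3.90, 4.18 and 3.86 in p53-null lung. Wild-type array 5 was the highest of all. The difference was 0.71 ± 0.47 (limma adjusted p = 0.354) over all arrays and 1.18 (limma adjusted p = 0.005) once that array was left out. Aifm1 differed by -0.17 ± 0.12 (limma adjusted p = 0.420) and by -0.27 (limma adjusted p = 0.0254), in the same order. Other regulators, also named after their values were seen, went either way without wild-type array 5. Polrmt differed by -0.59 (limma adjusted p = 0.00127). Of the promoter factors, Nrf1 differed by 0.43, Yy1 by -0.30 and Gabpa by -0.07 (limma adjusted p = 0.0106, 0.038 and 0.527). With all arrays none of these was called.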

How the data were processed

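Whole-lung RNA of 5 wild-type and 5 p53-null mice was measured on Agilent arrays with a single dye (Cy3), per the labels' protocols. The submitters' processing notes name Agilent Feature Extraction 9.5; the deposited intensity is background-subtracted, per the file headers, and not scaled between arrays. Here the 75th percentile of log2 intensity over 43379 non-control spots was subtracted on every array, flagged spots were left out, and the probe of highest mean stood for its gene. Names came from the GRCm38.p6 RefSeq table. Genes well above background on at least 5 arrays were compared with limma 3.58.1 in R 4.3.3 (Benjamini-Hochberg, 0.05). The code was tested on simulated data with changes larger than any difference in the chain, so that test does not cover differences of the size reported here.

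The genes and lists were chosen with earlier results of these data known. Named genes were Sco2, Ndufa4l2 (not analysed here), all Sdh genes, per other complex the called genes or the 2 of smallest p, the isoform pairs and called genes of related lists; 1 gene of the chain is counted but not reported by name here, and others are marked as chosen after their values were seen. Alternatives covered background, scaling, filter, probes, GC, slide, position, scan day, replicate number, variance model, weights, thresholds and arrays left out. Scores are means of genes centred over the 10 arrays. Permutation tests were two-sided with 100000 resamples.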

Additional observations from a re-analysis of the deposited data

Results flagged for a closer look

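In groups of 5 arrays, 66 sets of values were examined for an array that stood apart by Dixon's criterion, which chance meets in about 1 in 20, and 2 met it. Cox7b on p53-null array 2 read 2.40, and the nearest p53-null array read 2.50. The skeletal muscle score on wild-type array 2 was 3.98, and the nearest wild-type array had -1.11.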

How the results depend on the processing

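Precision is limited by 5 arrays per group. The chain's counts of 0 higher and 0 lower held under every alternative run except array weights (7 higher, 3 lower), leaving out wild-type array 5 (5 and 5; the range over single arrays left out was 0 to 5 for each) and that with the GC trend removed (2 and 15). In the last fit the medians were -0.11 for the chain, -0.11 for complex I and -0.23 for complex IV. The median of complex IV was -0.24 within the higher slide number range, and that of complex II 0.05 within position 4 on the slide. The number of genes called over the whole table, 1581, became 583 with median scaling, 538 with no filter, 0 with slide as a fixed block (670 higher and 469 lower at an unadjusted p under 0.05 by limma), 697 when blocking on slide number range, 13 with position, 322 with scan day, 6527 with array weights, 5821 with GC trend and wild-type array 5 removed, 10 without the 3 arrays rich in skeletal muscle genes, 56 at an adjusted p under 0.01 and 3527 under 0.1. Leaving out single arrays gave 192 to 6619. With slide as a fixed block, the genotype difference rests on the slide that held both groups. The causes were not tested.

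Replicate numbers do not pair the samples: the deviations of same-numbered arrays correlated from -0.22 to 0.00. With the replicate block, 26 genes were called over the table and 0 in the chain.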
